A study of Mus musculus with 3 samples.

Results

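Sarcolipin and 9 other genes of sarcoplasmic calcium handling were followed in gastrocnemius muscle: Sln, Atp2a1, Atp2a2, Casq1, Casq2, Srl, Ryr1, Jph1, Jph2 and Pvalb. They were read on every probe set, a group of array features that reads a transcript, whose symbol in the platform annotation was one of these genes. That gave 19 of the 45101 probe sets on the Affymetrix mouse array and 10 of the 11092 genes that could be compared, and none of the 19 was annotated to a second gene. The 3 groups were tamoxifen for 48 h, tamoxifen for 24 h and oil for 24 h. All mice, those given oil included, were Akt_Cre transgenic on a C57BL/CD1 background. Per the labels they make Akt, a growth-signalling kinase, joined to the estrogen receptor binding domain in skeletal muscle alone, and tamoxifen stabilises it. The promoter that drives it is not given there. Each group was 1 array of RNA from 3 to 4 pooled mice, whose age is not given in the labels. No array had tamoxifen without the fusion, and none had oil for 48 h, so time and treatment cannot be told apart at 48 h.

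A muscle fibre contracts when calcium leaves the sarcoplasmic reticulum, its internal store, and relaxes when the calcium is pumped back. The voltage sensor of the transverse tubule opens the ryanodine receptor, the release channel, at junctions held together by junctophilins. The calcium pumps SERCA1 and SERCA2 return calcium to the store, where calsequestrins and sarcalumenin bind it, and parvalbumin buffers calcium in the cytosol of fast fibres. Sarcolipin is a small membrane peptide that binds the pump and lets it split ATP while moving less calcium. In adult mice it is known for high expression in atria and slow muscle and for low expression in fast muscle such as most of the gastrocnemius.

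Of the 10 genes, 6 were found in the RefSeq promoter table of GRCm38.p6: Atp2a1, Casq1, Casq2, Jph2, Pvalb and Ryr1. The 250 bases before the annotated start are shown for the calsequestrin pair, because Casq2 was past 2-fold at 48 h and Casq1 was not. Capitals mark E-boxes, the sequence CANNTG that myogenic helix-loop-helix factors can bind. The Casq2 window is chr3:102086165-102086414 on the plus strand and the Casq1 window is chr1:172219896-172220145 on the minus strand, both 5′ to 3′.
Casq2: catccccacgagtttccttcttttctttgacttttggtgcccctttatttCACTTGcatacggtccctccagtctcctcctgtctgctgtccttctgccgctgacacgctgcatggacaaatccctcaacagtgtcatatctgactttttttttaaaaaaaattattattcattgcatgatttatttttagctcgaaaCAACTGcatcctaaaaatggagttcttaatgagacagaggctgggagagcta
Casq1: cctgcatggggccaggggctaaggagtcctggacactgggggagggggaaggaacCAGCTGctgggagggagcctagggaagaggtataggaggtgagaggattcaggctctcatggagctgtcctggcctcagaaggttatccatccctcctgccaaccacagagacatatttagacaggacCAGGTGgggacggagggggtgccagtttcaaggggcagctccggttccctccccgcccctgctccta
Each window held 2 E-boxes, read the same on both strands, beginning 200 and 52 bases before the start for Casq2 and 195 and 67 bases before it for Casq1. E-boxes were in 66.2% of all 32851 windows of that length, so their presence is common. The FoxO motif, GTAAACA, was in 3.17% of all windows. The cyclic AMP response element, TGACGTCA, was in 1.55% of them. The TATA box, TATAAA, was in 12.4% of them. Searched on both strands, none of these letters was in a window of the 6 genes. The Casq2 window was 41.6% G and C and the Casq1 window 61.6%.

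Values below are the deposited linear intensities after scaling the arrays to a common median, without a unit of their own. Probe sets differ in how strongly they bind, so levels were compared between arrays and not between genes. Only probe sets in the upper part of the intensity ranking were kept, those with a mean percentile rank over the 3 arrays of at least 0.5. Each gene is represented by the brightest of its kept probe sets, the one ranked highest on average, and "higher" or "lower" by a stated fold compares scaled intensities. With 1 array per group no replicate error exists and no test was made. The size rule was 2-fold, a log2 ratio of 1. Over 5001 genes with several kept probe sets, the ratios within a gene had a standard deviation of 0.49 in log2 for tamoxifen 24 h over oil, 0.41 for tamoxifen 48 h over oil and 0.44 for tamoxifen 48 h over tamoxifen 24 h. This spread does not measure variation between mice, and whether it holds differences between transcripts of a gene was not tested.

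Of the 19 member probe sets, 17 were kept, and every gene had at least 1. Fast-fibre contractile genes, the defining markers of this muscle, were bright on every array. The 12 compared summed to 97510 at 48 h of tamoxifen, 95850 at 24 h and 98550 with oil, and none was past 2-fold. Several read near the top of the scale, Tnnt3 at 11120, 10750 and 11390 in that order, so these values check the tissue and say little on stability. The arrays correlated at r = 0.967 (tamoxifen 48 h with tamoxifen 24 h), 0.954 (tamoxifen 48 h with oil) and 0.956 (tamoxifen 24 h with oil) over log2 values of 21804 kept probe sets.

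**Figure D1:**
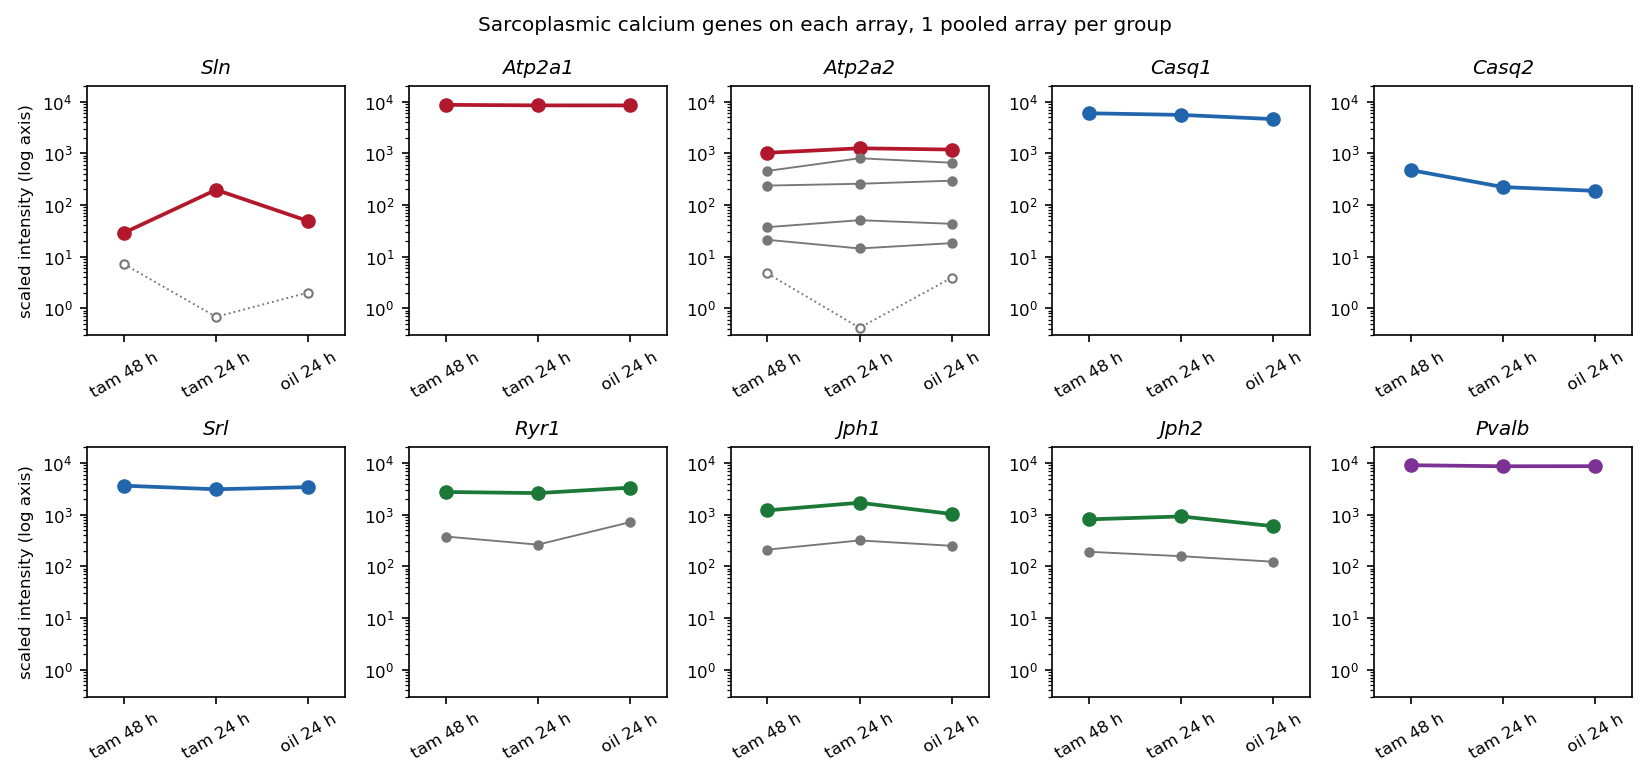
Scaled intensity (log axis) of every member probe set on the tamoxifen 48 h, tamoxifen 24 h and oil 24 h arrays, 1 pooled array per group. Coloured points are the probe set each gene was read on, grey points are its other probe sets, and open points on dotted lines were below the rank filter. Sln peaks at 196 on the tamoxifen 24 h array, and Casq2 is at 471 on the tamoxifen 48 h array against 187 with oil.

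Sarcolipin showed the widest swing of the 10 genes. On probe set 1420884_at, Sln read 28.8 at 48 h of tamoxifen, 196 at 24 h and 48.6 with oil. The 24 h array was the high one, and the other two lay much closer together. Sln was 4.03-fold higher at 24 h than with oil, the 31st highest ratio of 11092 genes, and 1.69-fold lower at 48 h than with oil, inside the size rule. At 48 h it was 6.81-fold lower than at 24 h, the 4th lowest ratio of 11092. Sln lay in the lower part of the kept range, where folds are noisier. Among the 4332 genes with mean ranks of 0.5 to 0.75, 8.17% were past 2-fold at 24 h against oil, 9.56% at 48 h against oil and 6.3% at 48 h against 24 h.

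The other Sln probe set, 1420883_at, was below the rank filter. It read 7.15 at 48 h of tamoxifen, 0.681 at 24 h and 2.02 with oil, and the last 2 values were under the floor of 4.05 set for all arrays. At 48 h it was 1.77-fold above the floor, and it gave no reading of the 24 h peak. It placed the 48 h array highest, where 1420884_at placed that array lowest. The Sln pattern therefore rests on 1 probe set and 1 array. In RNA of whole muscle, fewer fibres that express a gene and less of its RNA per fibre cannot be told apart.

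Both pump genes were within 2-fold throughout. Atp2a1, which encodes the fast-fibre pump SERCA1, read 8637 at 48 h of tamoxifen, 8434 at 24 h and 8413 with oil. These readings were near the top of the scale: 14, 14 and 16 probe sets were brighter on those arrays, and the effect of saturation on the ratio was not tested. Atp2a2, which encodes SERCA2, the pump of slow fibres and heart, read 1020 at 48 h of tamoxifen, 1246 at 24 h and 1178 with oil. The 48 h array was the lowest of the 3.

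Atp2a2 had 5 kept probe sets, more than any other member. Their log2 ratios spanned -0.34 to 0.29 at 24 h against oil and -0.53 to 0.21 at 48 h against oil, with 4 of 5 below 0 at 48 h. At 48 h against 24 h they spanned -0.81 to 0.56, again with 4 of 5 below 0, and the exception, 1437797_at, was the dimmest of the kept ones (21.1, 14.3 and 18.2 on tamoxifen 48 h, tamoxifen 24 h and oil). A sixth probe set, 1443551_at, was below the rank filter, at 4.71, 0.418 and 3.89 in that order. Slow-fibre contractile genes lay lower at 48 h as well. On their brightest kept probe sets all 8 compared, which include the slow myosin Myh7, were below 0 at 48 h against 24 h, with a median log2 ratio of -0.46. They summed to 8809 at 48 h of tamoxifen, 11820 at 24 h and 10660 with oil. The other kept probe sets of Tpm3, also on this list, spanned -0.80 to 1.16 at 48 h against 24 h. The part of the slow-fibre genes in the Atp2a2 values was not tested.

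Among the luminal calcium-binding proteins, Casq2 stood out. Casq2, the calsequestrin of slow fibres and heart, read 471 at 48 h of tamoxifen, 221 at 24 h and 187 with oil. The 48 h array was high and the other two were close to each other. Casq2 was 2.52-fold higher at 48 h than with oil, the 195th highest ratio of 11092 genes, 2.13-fold higher at 48 h than at 24 h, and 1.18-fold higher at 24 h than with oil. At its level large ratios were scarcer than at that of Sln. Among the 2824 genes with a mean rank of 0.9 or more, 3.86% were past 2-fold at 48 h against oil, 0.956% at 48 h against 24 h and 2.41% at 24 h against oil. The mean rank of Casq2, 0.907, was at the lower edge of that range. Among the 3936 genes with mean ranks of 0.75 to 0.9 the shares were 4.85%, 1.45% and 2.9% in that order. Casq2 ran opposite to the slow-fibre contractile genes, whose median log2 ratio was -0.41 at 48 h against oil. It was read on 1 probe set, 1422529_s_at, whose suffix in Affymetrix naming marks probes shared by several transcripts. Whether any of these transcripts belongs to another gene was not tested.

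Casq1, the main calsequestrin of fast fibres, read 5930 at 48 h of tamoxifen, 5515 at 24 h and 4573 with oil. Both tamoxifen arrays were above oil, by 1.30-fold at 48 h and 1.21-fold at 24 h, less than the spread between probe sets of the same gene. Srl, encoding sarcalumenin, read 3649 at 48 h of tamoxifen, 3108 at 24 h and 3432 with oil. Its log2 ratios of 0.09 at 48 h and -0.14 at 24 h against oil were also inside that spread.

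**Figure D2:**
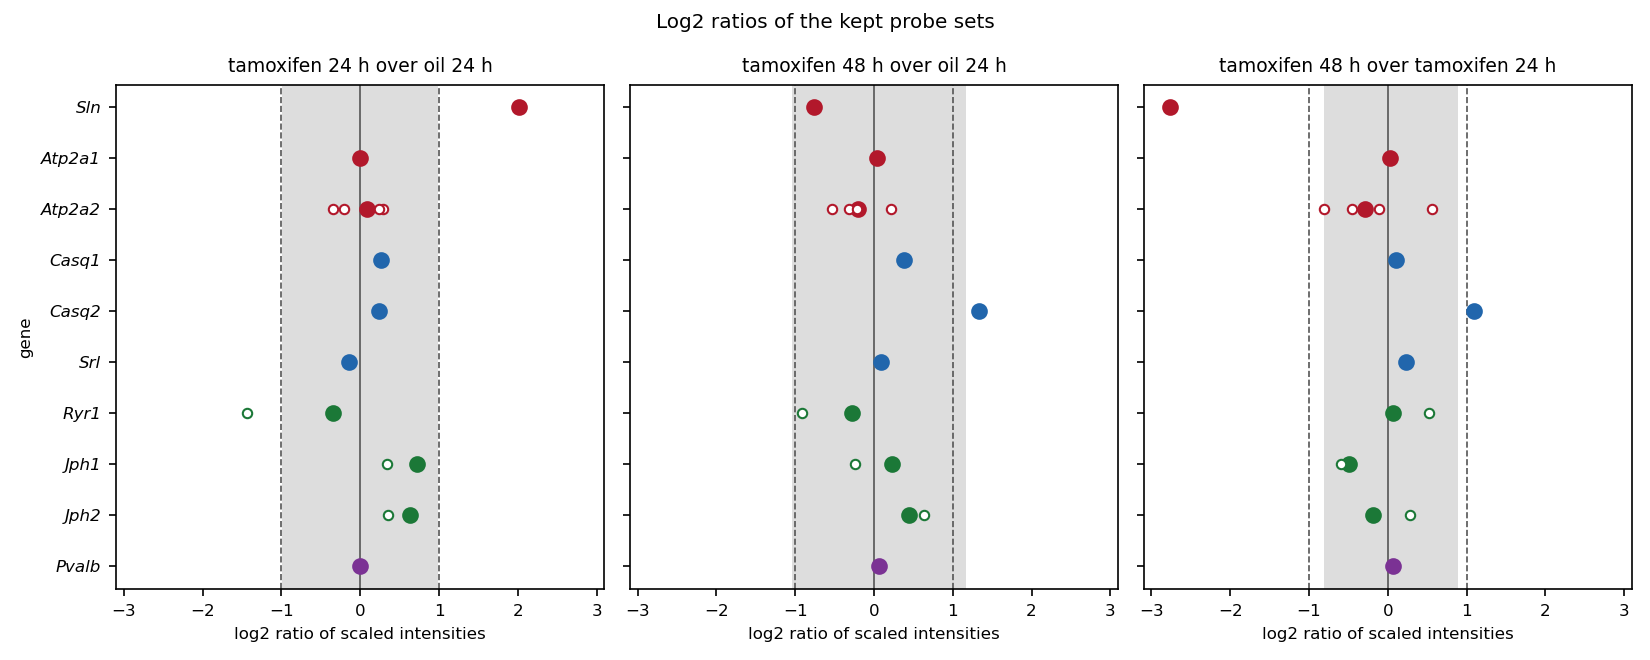
Log2 ratios of the 17 kept member probe sets in each comparison, with filled points for the probe set each gene was read on and open points for the others. Dashed lines mark 2-fold and the grey band holds the middle of all 11092 genes, from -0.998 to 0.98, from -1.04 to 1.17 and from -0.81 to 0.89 in the panels from left to right. Sln is at 2.01, -0.76 and -2.77 from left to right, Casq2 passes 2-fold in the middle and right panels, and 1 of 2 Ryr1 probe sets passes it in the left panel.

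The release channel and the junctophilins were read on 2 kept probe sets each. Ryr1, the release channel of skeletal muscle, read 2756 at 48 h of tamoxifen, 2622 at 24 h and 3335 with oil on 1427306_at. On 1457347_at it read 379, 264 and 716 in the same order. Both probe sets placed oil highest and the 24 h array lowest, but by different amounts. The brighter one was 1.27-fold lower at 24 h and 1.21-fold lower at 48 h than with oil, and the dimmer one 2.72-fold and 1.89-fold lower. That gap in log2 ratio is wider than the standard deviation within genes given above, so the size of the Ryr1 difference is not settled by these arrays.

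Jph1, the junctophilin found mainly in skeletal muscle, read 1214 at 48 h of tamoxifen, 1707 at 24 h and 1032 with oil on 1438428_at. On 1421520_at it read 211, 318 and 250 in that order. The 24 h array was the highest on both, at 1.66-fold and 1.27-fold above oil. At 48 h the brighter probe set was 1.18-fold higher and the dimmer one 1.19-fold lower than with oil, so no direction is given there.

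Jph2, a junctophilin shared with the heart, read 814 at 48 h of tamoxifen, 926.5 at 24 h and 600 with oil on 1455404_at. On 1421453_at it read 192, 157 and 123 in that order. Oil was the lowest array on both probe sets. The ratios over oil were 1.36-fold and 1.56-fold at 48 h and 1.54-fold and 1.28-fold at 24 h, none past 2-fold. The probe sets disagreed on which tamoxifen array was higher.

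Pvalb, encoding parvalbumin, read 9083 at 48 h of tamoxifen, 8672 at 24 h and 8700 with oil. Its log2 ratios over oil were 0.06 at 48 h and -0.0046 at 24 h, and only 9, 11 and 12 probe sets were brighter on the tamoxifen 48 h, tamoxifen 24 h and oil arrays. As with Atp2a1, the effect of saturation on these ratios was not tested.

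Counted by gene, 1 of the 10 was past 2-fold at 24 h against oil (Sln, higher), set beside 4.83% of all 11092 genes. At 48 h against oil 1 was (Casq2, higher), beside 6.44%. At 48 h against 24 h 2 were (Casq2 higher and Sln lower), beside 3.22%. Counted by kept probe set, 2 of 17 passed at 24 h against oil (Sln and the dimmer Ryr1 probe set), 1 at 48 h against oil and 2 at 48 h against 24 h. The shares of all kept probe sets were 7.32%, 7.14% and 5.45%. Counts this small, from genes chosen with these results known, are a description. The comparisons share arrays, so Sln at 24 h enters 2 of them and the oil array enters 2.

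Over all 10 genes, Sln and Casq2 included, the medians lay close to those of all genes compared. The median log2 ratio of the 10 was 0.16 at 24 h against oil, 0.08 at 48 h against oil and 0.05 at 48 h against 24 h, beside 0.04, 0.01 and -0.02 for all genes. At 24 h 7 of 10 were above 0, beside 54.0% of all genes, and at 48 h 7 of 10, beside 50.6%. Leaving out Sln, the ratios at 24 h ran from -0.35 for Ryr1 to 0.73 for Jph1, the 655th highest of 11092 genes. At 48 h they ran from -0.28 for Ryr1 to 1.33 for Casq2.

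**Figure D3:**
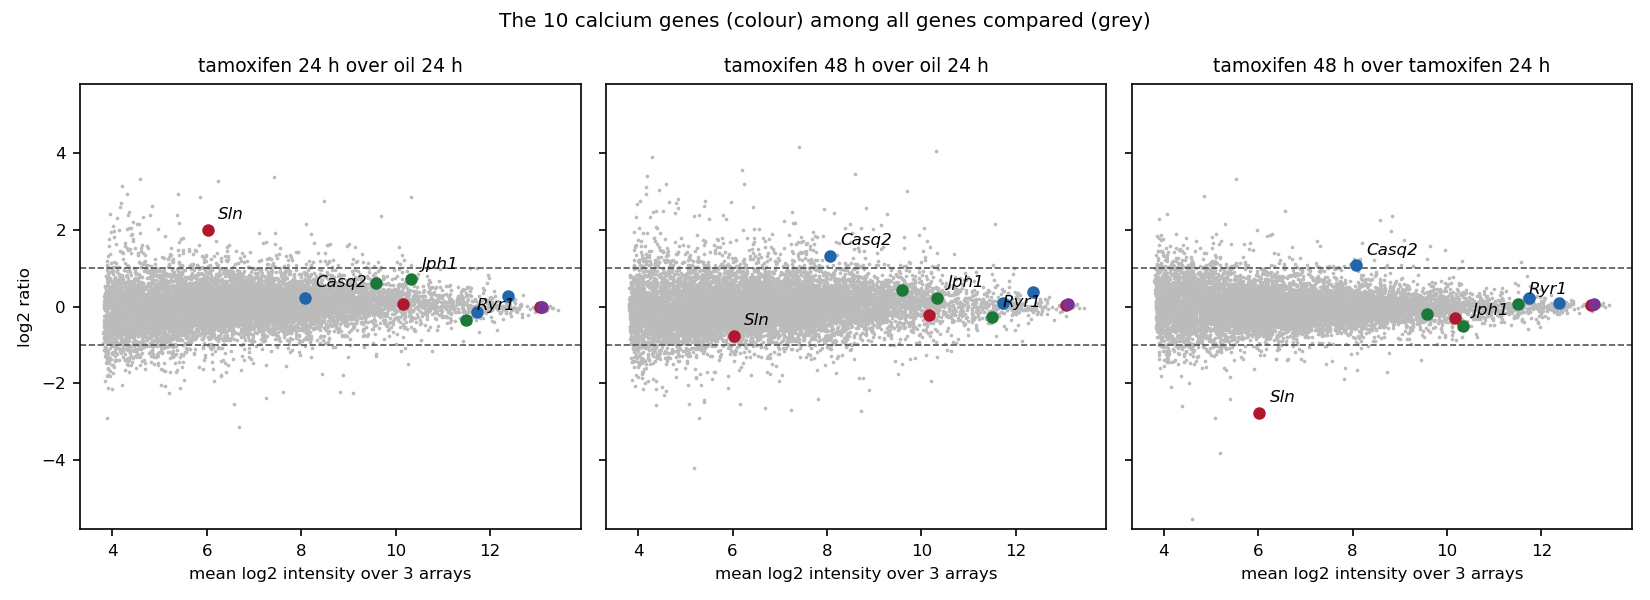
Log2 ratio against mean log2 intensity over the 3 arrays for all 11092 genes (grey) and the 10 calcium genes (colour, red for the pumps and Sln, blue for luminal proteins, green for the release channel and junctophilins, purple for Pvalb). Ratios spread more at low intensity. Sln lies at the edge of the cloud at 24 h over oil and at 48 h over 24 h, Casq2 past the upper 2-fold line in both 48 h panels, and Atp2a1 and Pvalb at the bright end near 0.

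Few of the genes searched had a pattern close to that of Sln. Likeness was the distance in the plane of the log2 ratios at 24 h and 48 h over oil, over 3 arrays. Genes with clone or predicted names were left out of this search and of that for Casq2. The nearest 6 of the remaining genes were Vapb, Il1r1, Eml4, Mettl7a2, Crb1 and Nfil3, at distances of 0.97 to 1.09. Vapb, a membrane protein of the endoplasmic reticulum, read 127 at 48 h of tamoxifen, 358 at 24 h and 115 with oil. Nfil3, a transcription factor, read 55.8, 144 and 72.5 in that order. None of the 6 reached the size of the Sln ratio at 24 h.

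Casq2 had closer neighbours, at distances of 0.08 to 0.16: Inpp4b, Man1b1, Klf10, Ttc9, Hspbap1 and Scube2. Klf10, a transcription factor induced by TGF-beta, read 315 at 48 h of tamoxifen, 170 at 24 h and 134 with oil. Inpp4b, a lipid phosphatase, read 43.9, 20.2 and 16.6 in that order. Like Casq2, these genes were high on the 48 h array with the other arrays close together, which is how they were picked.

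Another 59 calcium handling genes gave the setting, and 48 of them could be compared. At 24 h against oil 1 was higher and 1 lower by 2-fold, at 48 h against oil 2 were higher and 1 lower, and at 48 h against 24 h none was. The shares of all genes past 2-fold were 4.83%, 6.44% and 3.22%, so the first 2 counts were near the background. Their median log2 ratios were 0.19, 0.23 and 0.11, beside 0.04, 0.01 and -0.02 for all genes. Of the 48, 35 were above 0 at 24 h and 34 at 48 h against oil, beside 54.0% and 50.6% of all genes. Set against the median of all genes, 31 were above it at 24 h and 33 at 48 h. After quantile normalization and after loess these counts were 29 and 29.

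Genes of the triad, the junction where the tubule meets the store, and of the voltage sensor had the highest median of the 5 roles over oil at both times. At 24 h that order turned after quantile normalization, with 0.24 for the triad and 0.30 for store-operated entry and other release channels, and after loess, with 0.24 and 0.29. All 18 listed were compared, and 14 were above 0 at 24 h and 16 at 48 h against oil, with medians of 0.33 and 0.46. Set against the median of all genes, 14 were above it at 24 h and 15 at 48 h, and after quantile normalization and after loess 12 and 15 were. Sypl2, encoding mitsugumin 29 of the triad membrane, read 1815 at 48 h of tamoxifen, 1391 at 24 h and 548 with oil. Both tamoxifen arrays were well above oil, by 3.31-fold at 48 h and 2.54-fold at 24 h, on its 1 kept probe set. Cacnb1, the beta subunit of the voltage sensor, read 804, 477 and 381 in that order and was 2.11-fold higher at 48 h, with its other kept probe sets at log2 ratios of 0.92 and 1.18. After quantile normalization its log2 ratio was 0.99, just inside 2-fold. Cacna1s, the pore subunit, was 1.46-fold higher at 48 h and 1.29-fold at 24 h. Trdn, encoding triadin, which ties calsequestrin to the release channel, was within 1.13-fold of oil at both times, but its other kept probe sets spanned -0.38 to 0.50 at 24 h, and -0.01 to 1.65 at 48 h over oil.

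The other regulators of the pump did not share the Sln peak at the size of Sln. Mrln, encoding myoregulin, a pump-inhibiting peptide of skeletal muscle, read 609 at 48 h of tamoxifen, 1195 at 24 h and 952 with oil. It had the same order of arrays as Sln, with log2 ratios of 0.33 at 24 h and -0.64 at 48 h over oil and of -0.97 at 48 h over 24 h. Pln, encoding phospholamban, the pump inhibitor of heart and slow muscle, was lower than with oil at both times, at 33.5, 30.3 and 42.4 on tamoxifen 48 h, tamoxifen 24 h and oil, inside 2-fold. Its other kept probe sets were also below 0, from -1.56 to -0.80 at 48 h. Hrc, a luminal calcium-binding protein, read 2605, 2020 and 2273 in that order.

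Slc8a3, a sodium-calcium exchanger, was the one listed gene lower by 2-fold on its brightest kept probe set. It read 47.8 at 48 h of tamoxifen, 48.6 at 24 h and 150 with oil, 3.13-fold and 3.08-fold lower, and its other kept probe set was at -1.57 at both times. Smooth muscle markers were also lower in both tamoxifen arrays. All 5 were below 0, with Lmod1 and Myh11 past 2-fold at 48 h, and they summed to 1256 at 48 h, 1261 at 24 h and 2208 with oil. Their part in the Slc8a3 values was not tested. Atp2b1, another calcium pump named here because of its values, was at -0.11 at 24 h over oil on its brightest kept probe set. Its other kept probe sets spanned -1.615 to -0.44 there, and -0.11 to 1.305 at 48 h over 24 h.

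**Figure D4:**
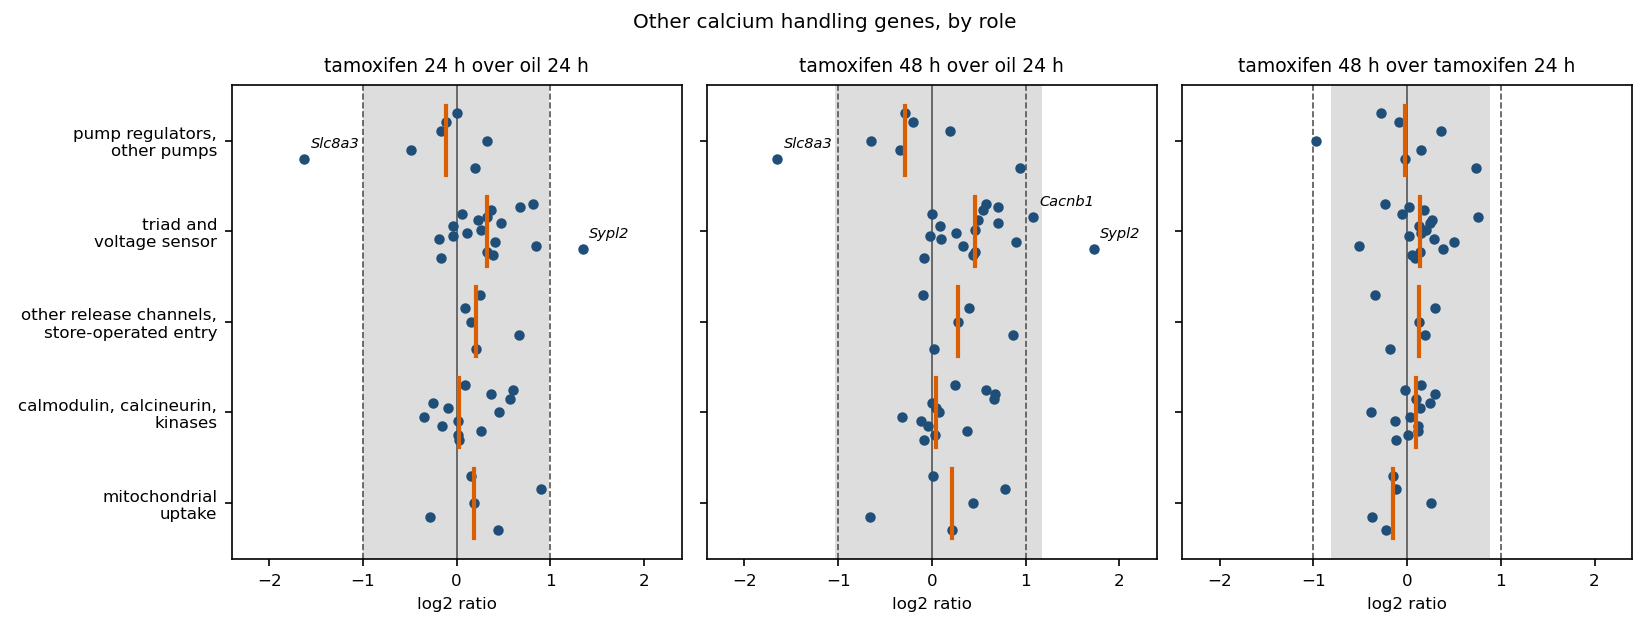
Log2 ratios of the 48 other calcium handling genes compared, by role, with orange bars at each group's median, dashed lines at 2-fold and the same grey band for all genes. The triad and voltage sensor group has its medians at 0.33 and 0.46 over oil. Sypl2, Cacnb1 and Slc8a3 are the genes past 2-fold.

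On the brightest kept probe set of each gene, store-operated entry, calcineurin signalling and mitochondrial uptake genes were inside 2-fold. Other kept probe sets of 4 of these genes, named here because of their values, were past it. The dimmer probe set of Mcu, the mitochondrial calcium channel, was at 1.21 at 24 h over oil and -1.39 at 48 h over 24 h, against 0.90 and -0.12 on the brighter one. At 48 h over oil the highest of the other probe sets was at 1.47 for Camk2a, 1.12 for Camk2d and 1.02 for Nfatc1. Stim1, the calcium sensor of the store, was 1.82-fold higher at 48 h and 1.59-fold at 24 h, but its other kept probe set was at 0.51 and -0.39. Orai1, the channel it opens, read 424 at 48 h of tamoxifen, 390 at 24 h and 351 with oil. Rcan1, a calcineurin target and inhibitor, read 378, 348 and 291 in that order. The 13 calmodulin, calcineurin and kinase genes compared had medians of 0.03 at 24 h and 0.04 at 48 h over oil, and the 5 mitochondrial uptake genes 0.19 and 0.22.

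Markers of other cells were also read on each array, given here as log2 medians over oil at 48 h and then at 24 h. They were -0.36 and 0.11 for 5 endothelial genes, -0.20 and -0.07 for 5 macrophage genes, and -0.21 and -0.20 for 6 fibroblast genes. Among the macrophage genes Cd163 was at -1.07 and -0.40. Among the fibroblast genes Col1a1 was at 1.18 and 0.81, with its other kept probe set at 0.13 and 0.08. The 3 neutrophil genes compared had medians of -1.70 and -0.73 and summed to 59.5 at 48 h of tamoxifen, 105 at 24 h and 169 with oil. The 4 satellite cell genes had medians of -0.40 and -0.19 but summed to 243 at 48 h of tamoxifen, 214 at 24 h and 173 with oil, with Cdh15 at 1.79 and 1.25. The 3 nerve genes had medians of -0.42 and -0.22, the 2 adipocyte genes 0.04 and 0.68, and the 1 erythroid gene -0.03 and -0.13. The 2 adipocyte genes summed to 520 at 48 h of tamoxifen, 758 at 24 h and 603 with oil, highest on the array on which Sln peaked. The 5 endothelial genes, at 655, 791 and 743 in that order, had the same order of arrays. So did the slow-fibre contractile genes, at 8809, 11820 and 10660. These are sums, and single genes differed on their brightest kept probe sets. Cidec, Kdr and Myl3 were lowest with oil. Tek, Myh7 and Myoz2 were highest with oil, and Cldn5 was highest at 48 h. The other genes compared in these lists had the order of Sln. The part of these lists in the Sln values was not tested.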

How the data were processed

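The authors deposited 1 linear intensity for each probe set of each Affymetrix mouse array. The summary, background correction and scaling methods are not given in the sources used here, nor are detection calls. Of 45101 probe sets, 64 controls were set aside. Symbols came from the platform annotation, updated through Entrez identifiers to RefSeq (GRCm38.p6): 34945 probe sets had 1 gene, 932 several and 9160 none. Probe sets with a mean percentile rank of 0.5 or more were kept (21804). Arrays were scaled to a common median over them, by 1.05 for tamoxifen 48 h, 0.944 for tamoxifen 24 h and 1.01 for oil 24 h, floored at 4.05, the 25th percentile of all scaled values, and put on the log2 scale, computed here from the deposited intensities. Each gene was represented by the kept probe set ranked highest on average (11092 genes).

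No test was possible with 1 array per group, and precision is limited by the number of arrays. The 10 genes, the other gene lists and the size rule were chosen with earlier results of these data known. Named were all 10 genes, every other calcium gene past 2-fold and 8 fixed calcium genes at any value. The 6 genes most like Sln and like Casq2, clone and predicted names left out, were also named. Of the fibre and cell type lists, the median, the summed level or both are given, with up to 3 genes of largest size. Myh7 illustrates its list, and further genes of these lists are named because of their values. Alternatives changed the scaling, floor, filter, probe set and size rule. The calculation was tested on simulated data (Python 3.11.15, pandas 2.3.3, statsmodels 0.14.6 for loess).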

Additional observations from a re-analysis of the deposited data

Results flagged for a closer look

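On probe set 1420884_at, Sln ran opposite ways at the 2 times, above oil at 24 h of tamoxifen and below it at 48 h. Its log2 ratio was -2.77 for tamoxifen 48 h over tamoxifen 24 h. At 48 h over oil it was -0.76, inside the size rule. Probe set 1420883_at, below the rank filter, read highest at 48 h, at 7.15, with the other arrays under the floor. Each time is 1 array, both ratios over oil share the oil array, and the difference was not tested.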

How the results depend on the processing

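The Sln log2 ratio stayed between 1.96 and 2.30 at 24 h over oil, between -0.82 and -0.68 at 48 h over oil and between -2.98 and -2.74 at 48 h over 24 h, under the 8 alternatives that gave it a value. At a rank filter of 0.75 Sln was not kept, so 0 members were past 2-fold at 24 h and 1 (Casq2) at 48 h over 24 h. Casq2 kept its side of 2-fold at 48 h over oil under all 9 alternatives of scaling, floor, filter and probe set (1.27 to 1.41). At 48 h over 24 h it was at 0.93 unscaled and 0.88 with no filter, which left 1 member past 2-fold in each. The median of all genes was then -0.18 and -0.14, against -0.02, and 1 of the other calcium genes was past 2-fold in each. With no filter 2 members passed at 24 h, Sln and Jph1 at 1.02, and 6 other calcium genes at 24 h and 5 at 48 h, where 11.7% and 11.1% of all genes passed. Arrays are scaled over kept probe sets, so the scaling changed too. The median of all genes at 24 h over oil was 0.19 with no filter, against 0.04. On the dimmest kept probe set 2 members passed at 24 h, Sln and Ryr1 at -1.44, and 6 other calcium genes at 48 h over oil and 3 at 48 h over 24 h, where 7.93% of all genes passed at 24 h, 8.59% at 48 h over oil and 6.15% at 48 h over 24 h. A 1.5-fold rule took 3 members at 24 h and 2 at 48 h over oil, and 8, 13 and 3 other calcium genes in the 3 comparisons, where 18.6%, 22.4% and 12.8% of all genes passed. No member past 2-fold changed sign. Unscaled values move every gene alike, so lists were read against the median of all genes: at 48 h over 24 h 6 of 10 members were above it as reported and unscaled, and 3 with no filter, and of 18 triad genes 15, 15 and 12 were.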
